A study of Mus musculus with 12 samples.

Results

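The immunity-related GTPases (IRGs) are a family of interferon-inducible GTP-binding proteins of the mouse, and 7 of them were followed here across all 12 libraries: Irgm1, Irgm2, Igtp, Iigp1, Ifi47, Tgtp1 and Tgtp2. They were taken by gene name from the count tables, which list 18719 genes in either state. All 7 are listed after lipopolysaccharide (LPS), and 6 are listed in unstimulated cells, where Tgtp1 is not. The rule is by name and sets no threshold on a measured value, but the family was chosen with earlier results of these data known.

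RNA was sequenced from J774A.1 cells, a mouse macrophage line, of 2 genotypes in 2 states with 3 lines in each group: WT without treatment, ACAT1 KO without treatment, WT after 2 hours with 100 ng/ml LPS, and ACAT1 KO after the same LPS treatment. LPS is a bacterial cell wall component that signals through TLR4. WT lines had received the Cas9-GFP vector with no guide, ACAT1 KO lines the same vector with a guide to the fourth exon of Acat1, a mitochondrial thiolase, and both were sorted for GFP and grown out as clonal populations, so all groups share the vector and the sort. A genotype is represented by 3 such lines, and effects of a clone and of the edit cannot be separated within a line.

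IRGs act in cells that have been exposed to interferon, where they defend against parasites and bacteria that live inside membrane-bound vacuoles. The effectors Iigp1 (also called Irga6), Tgtp1 and Tgtp2 (Irgb6 proteins) and Ifi47 (Irgd) can load onto the vacuole, bind GTP and disrupt its membrane, whereas the regulators Irgm1, Irgm2 and Igtp (Irgm3) sit on the cell's own membranes and hold the effectors in their inactive state there. Transcription of the family is known to be driven by interferon, through promoter elements called the gamma-activated sequence (GAS) and the interferon-stimulated response element (ISRE).

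Promoter sequences are shown because the members move together with LPS and because interferon elements are the known control of the family. RefSeq promoters on GRCm38.p6 were found for 6 of the 7 members, Iigp1 not among them, as windows of 250 bases before to 50 bases after the annotated start. For Irgm1, Irgm2 and Tgtp1 this start lies inside the gene span given below, and other starts of a gene were not searched. Both strands were searched for GAAA, any 2 bases and GAAA as the ISRE and for TTCNNNGAA as the GAS, which reads the same on both strands. The 120 bases before each start follow, 5′ to 3′ on the strand of the gene, with motif matches in capitals.
Irgm1, chr11:48871421-48871540, minus strand: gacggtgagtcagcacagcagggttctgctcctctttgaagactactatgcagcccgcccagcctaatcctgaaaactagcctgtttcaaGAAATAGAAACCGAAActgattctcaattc
Irgm2, chr11:58214857-58214976, plus strand: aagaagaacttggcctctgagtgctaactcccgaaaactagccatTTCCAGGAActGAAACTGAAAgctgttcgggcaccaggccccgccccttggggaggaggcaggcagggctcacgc
Igtp, chr11:58199436-58199555, plus strand: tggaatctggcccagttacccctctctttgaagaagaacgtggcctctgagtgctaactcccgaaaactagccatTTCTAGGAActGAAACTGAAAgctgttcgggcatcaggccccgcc
Tgtp1, chr11:48992247-48992366, minus strand: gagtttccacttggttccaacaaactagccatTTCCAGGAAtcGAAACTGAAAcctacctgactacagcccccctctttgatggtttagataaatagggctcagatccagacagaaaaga
Tgtp2, chr11:49064213-49064332, minus strand: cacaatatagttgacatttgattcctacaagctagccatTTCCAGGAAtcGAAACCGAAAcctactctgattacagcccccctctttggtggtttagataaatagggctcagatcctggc
Ifi47, chr11:49076467-49076586, plus strand: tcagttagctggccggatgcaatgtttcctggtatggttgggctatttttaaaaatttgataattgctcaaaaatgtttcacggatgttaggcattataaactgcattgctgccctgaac

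ISRE letters stood in 5 of the 6 promoters and GAS letters in 4. Of 32851 RefSeq promoter windows of the same length, 3.44% hold the ISRE letters, 8.30% the GAS letters and 0.454% both. In Irgm1 a pair of ISRE matches overlap, from 30 to 21 and from 24 to 15 bases before the start, and no GAS match is in the window. In Irgm2, Igtp, Tgtp1 and Tgtp2 the GAS match is followed by 2 bases and then the ISRE match. That arrangement, which was looked for after the member promoters had been read, is in 5 of the 32851 windows, 4 of them those members and the other Gm12185, a further IRG gene. The Irgm2 and Igtp windows, which lie at separate positions, are identical at 93.6% of aligned bases, and those of Tgtp1 and Tgtp2 at 83.3%, so the 4 promoters are not independent examples. Neither motif is in the Ifi47 window, and no reading about a factor's binding follows from letters alone.

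**Figure D1:**
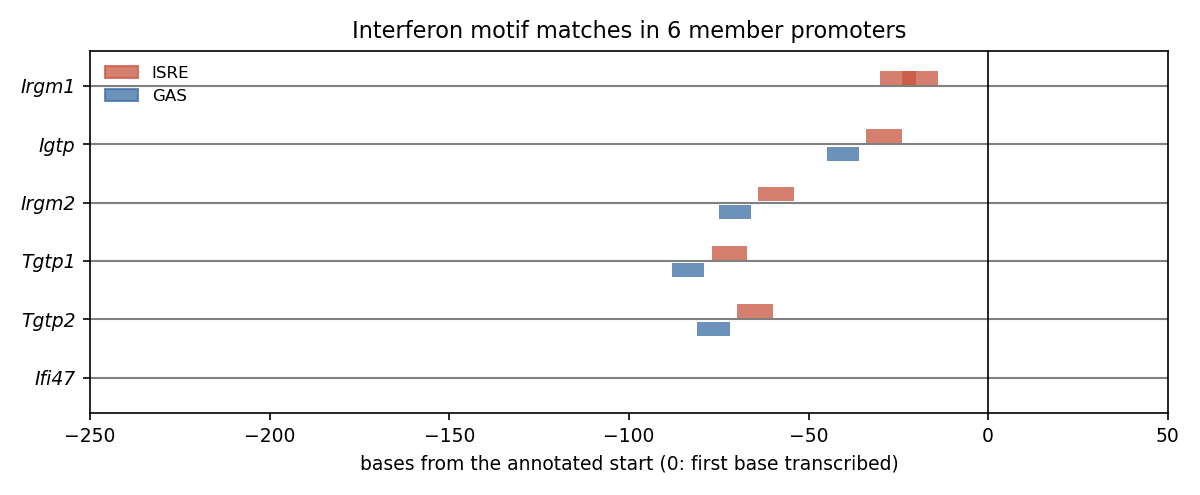
Positions of ISRE (red) and GAS (blue) letter matches in the promoter windows of 6 members; the horizontal axis is the distance in bases from the annotated start, from 250 before to 50 after it. In 4 members the GAS lies 2 bases before the ISRE, Irgm1 holds 2 overlapping ISRE matches, and Ifi47 holds neither.

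Libraries held from 56948593 to 167280149 counts. The parts of counting error and of the spread between lines in the precision of each member were not separated. Acat1, the targeted gene, was lower in ACAT1 KO cells in both states: its libraries ran from 25.5 to 28.9 counts-per-million values (CPM) against 80.8 to 108 CPM in unstimulated WT cells, and from 18.5 to 19.9 CPM against 65.0 to 95.4 CPM after LPS. All 9 macrophage markers were listed, among them Lyz2 at group means of 5146 to 6883 CPM, and of 12 markers of other cell types 4 were listed, none above a group mean of 4.53 CPM. Unstimulated WT replicates 1 and 2 and ACAT1 KO replicate 2 stood apart, with the 3 lowest totals and with 0.0118%, 0.0158% and 0.0187% of counts in 25 antisense noncoding genes against at most 0.00426% elsewhere, and genotype differences of the members are given within and outside these 3 libraries as well.

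Of the 7 genes, 6 lie on mouse chromosome 11 (GRCm38), and 4 of those lie near each other. Irgm1 spans 48861968 to 48871683, Tgtp1 48985327 to 48994172 and Tgtp2 49057194 to 49064206, all on the minus strand, and Ifi47 spans 49076587 to 49096974 on the plus strand. Igtp spans 58199556 to 58207591 and Irgm2 58199618 to 58222782, both on the plus strand. Iigp1 is on chromosome 18, from 60376027 to 60392634 on the plus strand. Igtp and Irgm2 share 162 exonic bases, Tgtp1 overlaps 223 exonic bases of Gm12185 on its own strand, and Ifi47 overlaps 111 exonic bases of Olfr56 on its own strand and 106 of Gm12188 on the other. Of all 100-base stretches of Tgtp1 transcripts, 70.3% occur also in Tgtp2, so the counts of Tgtp1 and Tgtp2 are uncertain as separate genes. For Igtp that share is 5.16% with Irgm2, and for Irgm1 and Iigp1 it is 0% with any gene.

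The regulators made up most of the family's counts in every group. In unstimulated WT cells the summed level of the 6 listed members was 73.6 to 88.1 CPM, and in unstimulated ACAT1 KO cells 48.2 to 59.8 CPM. After LPS the sum of all 7 was 1165 to 1557 CPM in WT and 1163 to 1417 CPM in ACAT1 KO cells. The sums do not overlap between genotypes without LPS and overlap after it. Irgm1 alone gave from 50.0% to 56.3% of the sum in the 12 libraries. These sums are not divided by exon length, which is 5.81 kb for Irgm1 and 2.02 kb for Igtp, so the shares are of counts and not of transcripts.

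Levels were compared between genes as CPM per kilobase of merged exon. Merged exons join all annotated transcripts of a gene, and which transcripts the cells express was not tested. The order between genes depends on that length, and overlap between libraries speaks only to their spread. In unstimulated WT cells the order was Igtp at 8.77 ± 0.269 (SD, n = 3), Irgm1 at 7.71 ± 0.864, Irgm2 at 3.21 ± 0.659, Ifi47 at 2.97 ± 0.306, Iigp1 at 0.114 ± 0.0283 and Tgtp2 at 0.0876 ± 0.0180 CPM per kilobase. Libraries of Irgm2 and Ifi47 overlapped, as did those of Iigp1 and Tgtp2. In unstimulated ACAT1 KO cells Igtp at 6.16 ± 0.434 and Irgm1 at 4.92 ± 0.693 CPM per kilobase still led, but Ifi47 at 2.75 ± 0.441 then stood above Irgm2 at 1.81 ± 0.121 with no library in common, and Tgtp2 and Iigp1 overlapped at the bottom.

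After LPS the 3 regulators formed a group of their own at the top. In WT cells Irgm1 was at 125.7 ± 15.6 (SD, n = 3), Igtp at 105.7 ± 17.2 and Irgm2 at 94.7 ± 14.3 CPM per kilobase, with overlap between each and the next. Ifi47 followed at 25.5 ± 6.62, Iigp1 at 6.22 ± 2.24, Tgtp2 at 2.71 ± 1.04 and Tgtp1 at 1.02 ± 0.266 CPM per kilobase, none overlapping its neighbour. In ACAT1 KO cells the order was the same, Irgm1 at 125.7 ± 11.4 CPM per kilobase lay above every Igtp library, and only Igtp at 99.5 ± 11.6 and Irgm2 at 83.1 ± 9.99 overlapped. Tgtp1 was last at 0.543 ± 0.157 CPM per kilobase. Most 100-base stretches of Tgtp1 and Tgtp2 occur in both genes, and how reads from them were counted is not given. The places of Tgtp1 and Tgtp2 in the order are therefore uncertain, as is that of Tgtp2 without LPS.

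**Figure D2:**
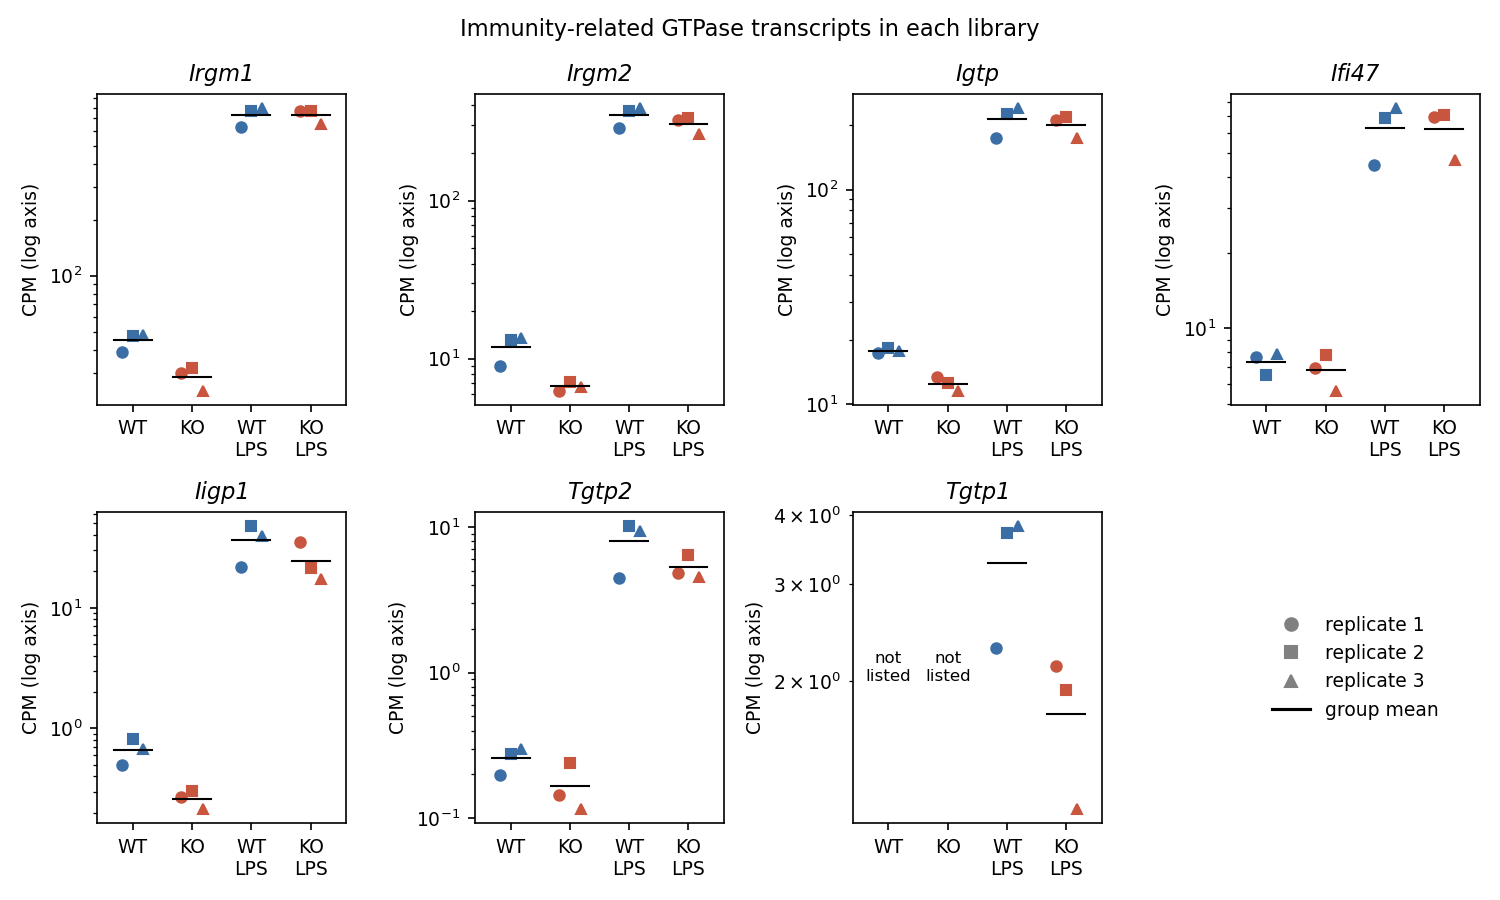
CPM of each member in each of the 12 libraries, on log axes, with a panel for each gene, blue for WT, red for ACAT1 KO, marker shapes for the replicate number and a black bar for the mean of the group. ACAT1 KO libraries lie below WT libraries without LPS for Irgm1, Irgm2, Igtp and Iigp1, and the genotypes overlap after LPS for every member but Tgtp1, which is not listed without LPS.

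The comparison of ACAT1 KO with WT cells without stimulation asks whether the loss of ACAT1 alters the resting level of these transcripts. Every member tested had a negative log2 fold change, but after adjustment over all genes only Igtp passed. In these bulk libraries fewer expressing cells and less RNA per cell cannot be told apart. Of 6 members, 1 was lower at an adjusted p under 0.05 (the quasi-likelihood test of edgeR, adjusted by Benjamini-Hochberg), where 1.17% of the 16440 genes tested were lower and 1.91% passed in either direction. At an unadjusted p under 0.05, the threshold of the study's methods, 4 of 6 were lower against 9.93% of all genes. For 4 of 6 the libraries of the genotypes did not overlap, with ACAT1 KO lower, against 13.2% of all genes. The median log2 fold change of the 6 was -0.64, beside 0.0035 over all genes tested. DESeq2 called 4 of 6 members where it called 10.5% of genes in either direction, and limma-voom called 1, where it called 1.75%.

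Igtp, the regulator found on the endoplasmic reticulum, was measured at 17.2, 18.3 and 17.6 CPM in WT and at 13.3, 12.5 and 11.6 CPM in ACAT1 KO cells. The groups do not overlap, and the spread within each was small. Its log2 fold change was -0.50 (SE 0.0806, 95% interval -0.69 to -0.31, edgeR adjusted p = 0.0405), a level 1.41-fold lower. The call was lost when any of the 6 libraries was left out, with edgeR adjusted p from 0.0563 to 0.162. In those fits its log2 fold change ran from -0.56 to -0.45, and the calls over all genes from 7 to 522, against 314 with every library.

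Irgm1, which localizes to the Golgi and to lysosomes and is the best studied regulator, was at 39.0, 47.3 and 48.1 CPM in WT and at 30.0, 31.8 and 24.1 CPM in ACAT1 KO cells. Its log2 fold change was -0.64 (SE 0.128, 95% interval -0.94 to -0.33, edgeR unadjusted p = 0.00169, adjusted p = 0.0638). The third regulator, Irgm2, was at 9.06, 13.0 and 13.5 CPM in WT and at 6.29, 7.17 and 6.58 CPM in ACAT1 KO cells. It gave a log2 fold change of -0.82 (SE 0.168, edgeR unadjusted p = 0.00191, adjusted p = 0.0679). For both genes each ACAT1 KO library lay below each WT library, WT replicate 1 was the lowest of its group, and the adjusted threshold was not passed.

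Among the effectors, Iigp1 had the largest difference of the family. It was at 0.495, 0.824 and 0.671 CPM in WT and at 0.268, 0.305 and 0.215 CPM in ACAT1 KO cells, levels that rest on 26 to 83 counts per library. The groups do not overlap, and the log2 fold change was -1.33 (SE 0.265, 95% interval -1.96 to -0.70, edgeR unadjusted p = 0.00162, adjusted p = 0.0627). Tgtp2 was at 0.198, 0.275 and 0.299 CPM in WT and at 0.145, 0.239 and 0.116 CPM in ACAT1 KO cells, from 14 to 37 counts, and its log2 fold change was -0.64 (SE 0.347, edgeR adjusted p = 0.367). ACAT1 KO replicate 2 lay within the range of WT.

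Ifi47 had the smallest difference in unstimulated cells. Its levels were 7.64, 6.49 and 7.91 CPM in WT and 6.92, 7.81 and 5.64 CPM in ACAT1 KO cells. The groups overlap, and the 95% interval of the log2 fold change of -0.10 ran from -0.48 to 0.27 (edgeR adjusted p = 0.781). The exact two-sided permutation test of 3 against 3 libraries cannot go below p = 0.1, which it reached for Irgm1, Irgm2, Igtp and Iigp1.

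Within the 3 unstimulated libraries that stood apart, differences in mean log2 CPM between ACAT1 KO and WT were -0.43 for Irgm1, -0.60 for Irgm2, -0.51 for Igtp and -1.02 for Iigp1, and within the other 3 they were -0.84, -1.06, -0.51 and -1.41. The sign of these 4 was thus the same in both sets, and Igtp was alike in each. The difference was 0.15 and -0.34 for Ifi47 and 0.033 and -1.10 for Tgtp2, so these 2 differed in sign. Each set holds 1 library of a genotype on one side, so these values carry no test.

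After LPS the same comparison gave no call among the members by edgeR at an adjusted p under 0.05, where 15.1% of 16483 genes passed in either direction. DESeq2 called 1, Tgtp1, where it called 18.7% of genes, and limma-voom 0, where it called 14.6%. At an unadjusted p under 0.05 edgeR found 1 of 7 lower, again Tgtp1, against 17.2% of all genes. The median log2 fold change of the 7 was -0.17, beside -0.0041 over all genes.

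All 3 regulators overlapped between genotypes after LPS. Irgm1 was at 628, 763 and 800 CPM in WT and at 770, 767 and 654 CPM in ACAT1 KO cells, which is a log2 difference of 0.02 with a 95% interval from -0.22 to 0.26 (edgeR adjusted p = 0.916). Igtp was at 175, 225 and 241 CPM in WT and at 212, 217 and 174 CPM in ACAT1 KO cells, which is a log2 difference of -0.07 with a 95% interval from -0.36 to 0.23 (edgeR adjusted p = 0.755). Irgm2 was at 289, 372 and 387 CPM in WT and at 323, 332 and 264 CPM in ACAT1 KO cells, for a log2 difference of -0.17 and a 95% interval from -0.45 to 0.12 (edgeR adjusted p = 0.393). In each of the 3, WT replicate 1 and ACAT1 KO replicate 3 were the low libraries.

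The effectors had wider intervals. Tgtp1 was at 2.30, 3.72 and 3.82 CPM in WT and at 2.13, 1.92 and 1.17 CPM in ACAT1 KO cells, from 123 to 578 counts. Its groups do not overlap, as was so of 21.9% of all genes in this direction. The log2 fold change was -0.90 (SE 0.260, 95% interval -1.50 to -0.31, edgeR unadjusted p = 0.00817, adjusted p = 0.0522). Tgtp2, its near copy, was at 4.46, 10.1 and 9.31 CPM in WT and at 4.83, 6.42 and 4.56 CPM in ACAT1 KO cells, with overlap and a log2 fold change of -0.58 (SE 0.283, edgeR adjusted p = 0.206). With the counts of both genes summed, the log2 fold change was -0.66 (SE 0.258, edgeR unadjusted p = 0.0326, adjusted p = 0.122). Of the 6 fits with an LPS library left out, 1 called these genes, that without WT replicate 1, the low library of its group. There Tgtp1 was at -1.10 (edgeR adjusted p = 0.0194) and Tgtp2 at -0.86 (edgeR adjusted p = 0.0115), where 13.3% of genes passed. Leaving out the lowest WT library raises the WT mean, so that fit is no separate support. Over the 6 fits the edgeR adjusted p reached 0.141 for Tgtp1 and 0.480 for Tgtp2.

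Iigp1 was at 21.9, 47.5 and 39.2 CPM in WT and at 35.3, 21.2 and 17.4 CPM in ACAT1 KO cells after LPS. The groups overlap, and the log2 fold change of -0.54 had a 95% interval from -1.27 to 0.19 (edgeR adjusted p = 0.288). Ifi47 was at 44.6, 68.9 and 75.7 CPM in WT and at 69.5, 70.5 and 46.8 CPM in ACAT1 KO cells, and its log2 fold change lay within 0.01 of 0 with a 95% interval from -0.49 to 0.49 (edgeR adjusted p = 1.00).

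**Figure D3:**
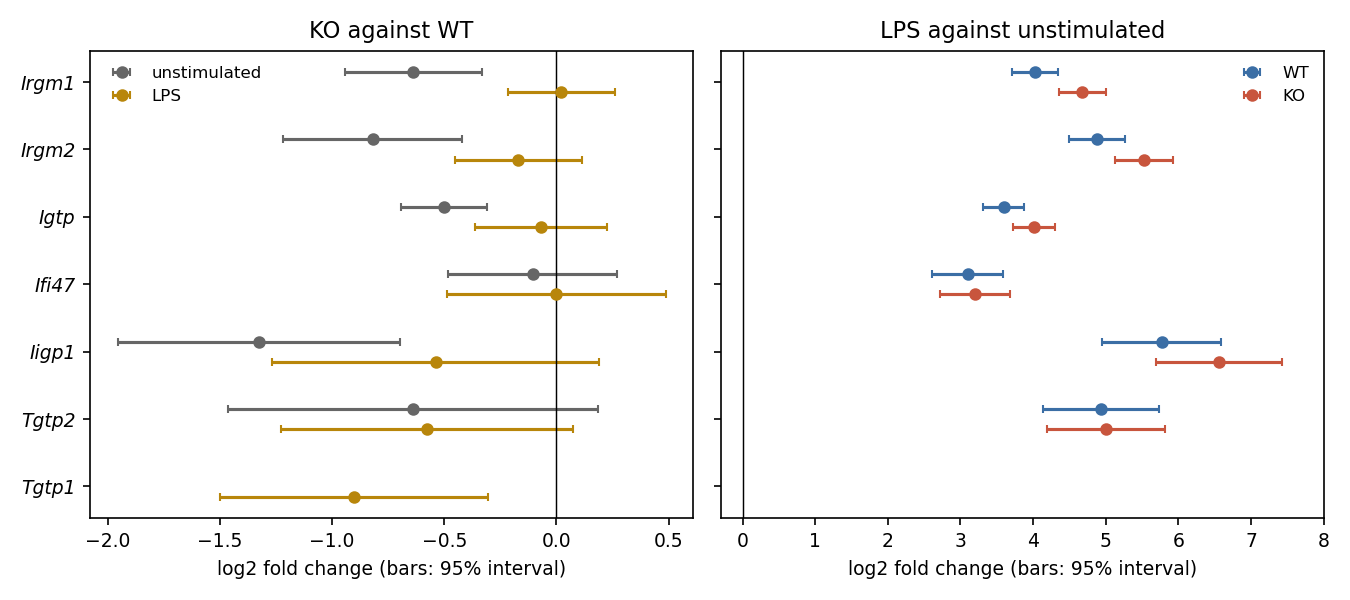
Log2 fold changes of each member with 95% intervals from edgeR; the left panel compares ACAT1 KO with WT cells without stimulation (grey) and after LPS (gold), and the right panel LPS with no stimulation in WT (blue) and ACAT1 KO (red). Unstimulated intervals of Irgm1, Irgm2, Igtp and Iigp1 lie below 0, after LPS only that of Tgtp1 does, and all LPS intervals lie above 2.6.

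Whether the genotype difference itself changed with LPS was tested as an interaction over all 12 libraries for the 6 members listed in both states. No member passed an adjusted p under 0.05 by edgeR, where 0.187% of 16535 genes did. DESeq2 called 1, Irgm1, with an adjusted p of 0.0195, where it called 2.02% of genes, and limma-voom 0, where it called 0.0665%. At an unadjusted p under 0.05 edgeR found 3 of 6 positive, Irgm1, Irgm2 and Igtp, against 3.28% of all genes. All 6 values were positive with a median of 0.53, beside -0.038 over all genes.

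A positive value means that ACAT1 KO cells gained more than WT cells on the log2 scale. Irgm1 had an interaction of 0.65 (SE 0.179, 95% interval 0.26 to 1.04, edgeR unadjusted p = 0.00374, adjusted p = 0.202). Irgm2 had 0.64 (SE 0.216, edgeR unadjusted p = 0.0121, adjusted p = 0.329) and Igtp 0.42 (SE 0.166, edgeR unadjusted p = 0.0267, adjusted p = 0.450). The effectors were measured less precisely, with 0.79 for Iigp1 (95% interval -0.36 to 1.93), 0.10 for Ifi47 (-0.54 to 0.74) and 0.07 for Tgtp2 (-0.92 to 1.07). With the line number as a block, Irgm1 (edgeR adjusted p = 0.00708) and Irgm2 (edgeR adjusted p = 0.0270) passed, where 1.74% of genes did; the labels do not say whether equal numbers mark the same line in both states.

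LPS raised every member listed in both states, in both genotypes. All 6 passed the adjusted threshold as higher in WT, where 29.3% of 16535 genes did, and in ACAT1 KO cells, where 29.5% did. Both comparisons come from the same fit, each with its own unstimulated libraries. The members ranked between 32 and 212 of 16535 genes by log2 fold change in WT and between 29 and 250 in ACAT1 KO cells. Iigp1, an effector with 26 to 83 counts per library without LPS, had the largest log2 fold change, 5.77 (SE 0.374) in WT and 6.56 (SE 0.399) in ACAT1 KO cells, or 54.6-fold and 94.3-fold.

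The other effectors differed widely from each other. Tgtp2 had log2 fold changes of 4.93 (SE 0.366) in WT and 5.00 (SE 0.370) in ACAT1 KO cells, and Ifi47 the smallest of the family, 3.10 (SE 0.221) and 3.20 (SE 0.221). Among the regulators Irgm2 had 4.88 (SE 0.176) and 5.52 (SE 0.182), Irgm1 4.03 (SE 0.142) and 4.67 (SE 0.147), and Igtp 3.59 (SE 0.128) and 4.01 (SE 0.131). The edgeR adjusted p of these 12 values lay between 3.63e-10 for Irgm1 in ACAT1 KO cells and 3.14e-07 for Tgtp2 in WT. Since Tgtp1 is not listed without LPS, no response was computed for it.

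Within a group the members rose and fell together from library to library. WT LPS replicate 1 was the lowest of its group for all 7 members, and ACAT1 KO LPS replicate 3 likewise for all 7. In unstimulated cells WT replicate 1 was lowest for 5 of 6 and ACAT1 KO replicate 3 for 5 of 6. Across the 12 deviations from the group means, Pearson's r between pairs of the 6 members ran from 0.57 for Irgm2 with Ifi47 to 0.88 for Igtp with Ifi47. These are descriptions over 12 libraries that share their normalization factors, and genes with overlapping exons share reads. Shares of all genes lowest in these libraries are not given, and whether the pattern is particular to the family was not tested.

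**Figure D4:**
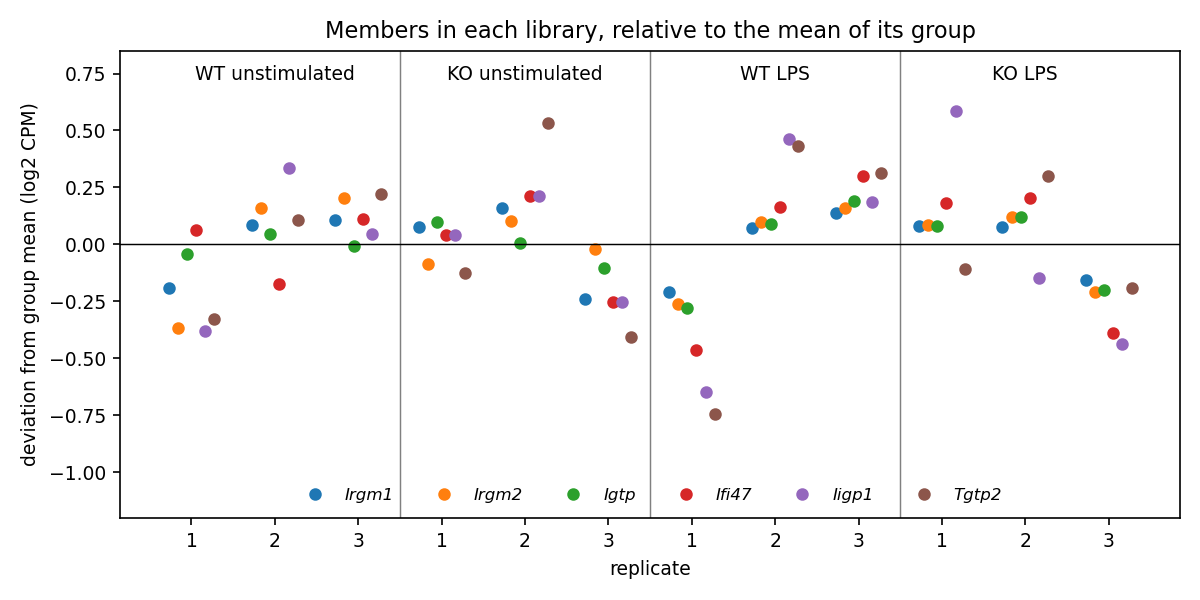
Deviation of the log2 CPM of 6 members from the mean of the library's group, with a position for each of the 12 libraries and a color for each gene. WT LPS replicate 1 and ACAT1 KO LPS replicate 3 lie below 0 for all 6 members.

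Of all other genes listed in both states, those whose log2 CPM followed the mean standardized profile of the 6 members most closely over the 12 libraries were Ifit3 (Pearson's r 0.999), Daxx, Tlr3, Ifit1 and Zcchc2 (each 0.998 to 0.999). That profile is set mainly by the LPS step. Over the 12 deviations from the group means the closest were Ifit2 (0.974), Dennd6a (0.969), Dcakd (0.964), Phf11d (0.964) and Rnf114 (0.952). Ifit1, Ifit2 and Ifit3 encode antiviral proteins of another interferon-induced family, and Tlr3 a receptor for double-stranded RNA.

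Further IRG genes of the mouse, several of them of unsettled coding status, rose with LPS, by less than the members at the median. Of 10 genes fixed for this list 9 were listed in a table and 8 tested in both states. All 8 were higher with LPS at the adjusted threshold in both genotypes, beside 29.3% of all genes in WT and 29.5% in ACAT1 KO cells. Medians were 2.59 in WT and 2.97 in ACAT1 KO cells, beside 4.45 and 4.84 for the members. Gm12250, known as Irgb10, which helps to break open bacteria, had the largest values, 5.16 (SE 0.453) and 5.76 (SE 0.464). Between genotypes none of 8 was called by edgeR at an adjusted p under 0.05 without LPS, where 1.91% of all genes were. At an unadjusted p under 0.05, 3 were lower, against 9.93% of all genes. The smallest p values belonged to F830016B08Rik at -1.92 (SE 0.467, edgeR adjusted p = 0.0931) and Gm4951 at -1.53 (SE 0.448, edgeR adjusted p = 0.134). After LPS none of 9 was called by edgeR, where 15.1% of all genes were. Without adjustment 3 had a p under 0.05, 1 of them higher, near the 31.3% of all genes in either direction. The median of the 9 was -0.0068.

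Guanylate-binding proteins (GBPs) are the larger interferon-induced GTPases that arrive with IRGs at the vacuole. Without LPS all 10 GBP genes tested had negative log2 fold changes in ACAT1 KO cells, with a median of -0.59, and 2 were lower at the adjusted threshold, which 1.17% of all genes passed as lower. These were Gbp7 at -1.32 (SE 0.148, edgeR adjusted p = 0.0206) and Gbp2b at -0.61 (SE 0.109, edgeR adjusted p = 0.0477). After LPS the median of 12 was -0.032 and 1 was called, near the 5.93% of all genes that were higher. It was Gbp3, at 0.48 (SE 0.120, edgeR adjusted p = 0.0335). Gbp7 also passed the interaction test, where 0.187% of all genes did, at 1.21 (SE 0.193, edgeR adjusted p = 0.0383).

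Of 20 interferon signalling genes tested without LPS, 2 were lower and 1 higher in ACAT1 KO cells at the adjusted threshold, beside 1.17% lower and 0.742% higher of all genes. Stat2, a subunit of the complex that binds the ISRE, fell by 1.15 on the log2 scale (SE 0.156, edgeR adjusted p = 0.0344), and Usp18, an inhibitor of the type I interferon receptor, fell by 1.76 (SE 0.201, edgeR adjusted p = 0.0215). Irf8, a macrophage lineage factor, was higher at 0.55 (SE 0.0579, edgeR adjusted p = 0.0175).

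After LPS 2 of 21 of these genes were higher in ACAT1 KO cells and 2 lower, shares near those of all genes, 5.93% and 9.12%. Ifnb1, which encodes interferon-β, was higher at 1.27 (SE 0.309, edgeR adjusted p = 0.0312), as was Batf2 at 0.86 (SE 0.237, edgeR adjusted p = 0.0455). Irf8 fell by 0.65 on the log2 scale (SE 0.121, edgeR adjusted p = 0.0129) and Ifnar1, a chain of the type I interferon receptor, by 0.28 (SE 0.0575, edgeR adjusted p = 0.0197). Of the 20 tested for interaction 1 passed, where 0.187% of all genes did: Irf8, at -1.22 (SE 0.148, edgeR adjusted p = 0.0195).

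**Figure D5:**
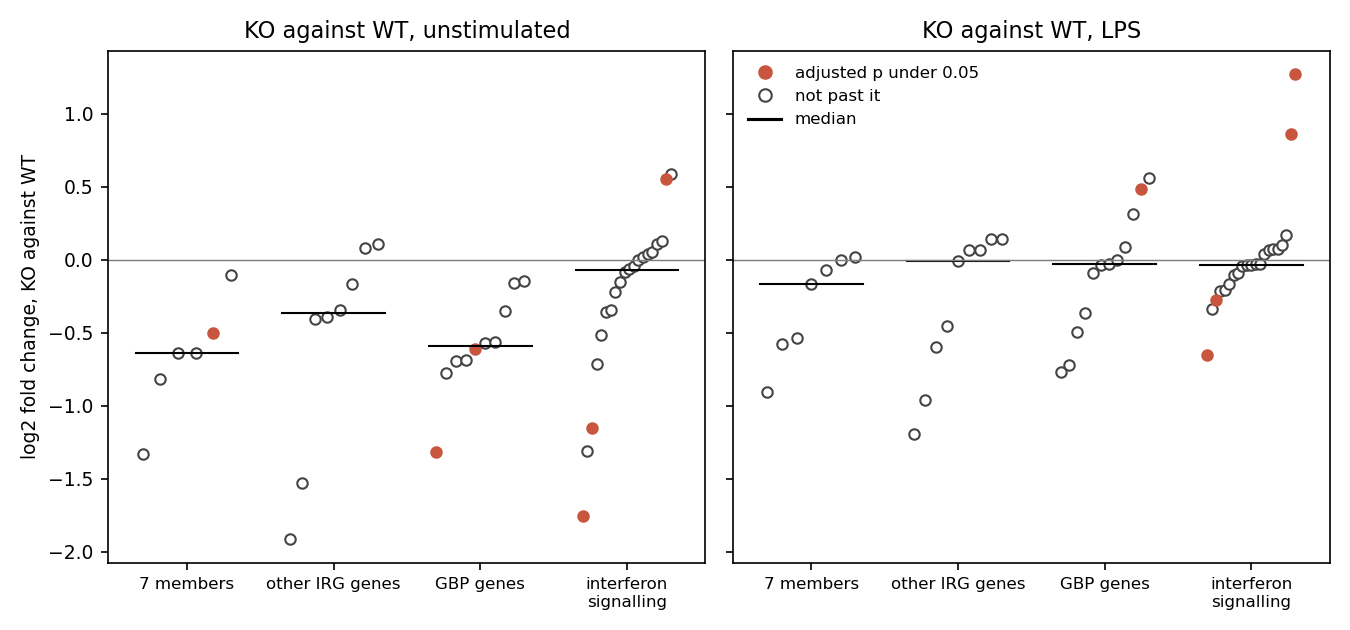
Log2 fold changes of ACAT1 KO against WT for the members, the other IRG genes, the GBP genes and the interferon signalling genes, without stimulation (left) and after LPS (right); each circle is a gene, filled where edgeR's adjusted p is under 0.05, and bars are medians. Members have a median of -0.64 over 6 genes without LPS and -0.17 over 7 after it, where Tgtp1 is added. GBP genes have -0.59 over 10 genes and -0.032 over 12.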

How the data were processed

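RNA-seq counts of 12 libraries, from 3 WT and 3 ACAT1 KO lines in each of 2 states, were grouped by the genotype, treatment and number in their labels. The study's methods give 3 lines per genotype, the labels only a number, and p-values measure the spread between these libraries. Libraries came from a strand-specific kit. Per the submitters' processing notes and the study's methods, trimming was by Trimmomatic 0.33, alignment by HISAT2 (GRCm38) and quantification by StringTie. The step that gave whole counts, and whether it used strand, are not given in the sources used here. The authors deposited raw counts per gene in a table for each state, of 17544 and 17874 genes after removal of 59 and 57 repeated entries. No gene listed has under 4 counts in more than 1 of a state's 6 libraries. The 12 columns of the authors' log2 values, and their fold changes and p-values, were not used.

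edgeR 4.0.16 in R 4.3.3 was run with filterByExpr, TMM factors and two-sided quasi-likelihood tests with Benjamini-Hochberg adjustment over all genes tested. Genotypes were compared within the 6 libraries of a state, and LPS responses and the interaction in a fit of all 12 libraries over the 16699 genes of both tables, which also gave CPM. Fold changes are ACAT1 KO against WT or LPS against unstimulated, and log2 CPM used a prior count of 2. All 7 members are named, and of each list at most 5 called genes, or the 2 with the smallest p where none was called. Members and lists were chosen with earlier results of these data known. Exon lengths and overlaps are from GENCODE M21, which matched 18691 of 18719 identifiers without their version, and promoters from RefSeq.

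Libraries of a group differed beyond sampling noise (chi-square per degree of freedom 34.1 to 287), so none is a copy. On simulated counts for unstimulated cells (16244 genes) the test recovered 52 of 102 genes changed by 1 on the log2 scale and 60 of 94 changed by 2, with 4.27% of calls on unchanged genes; after LPS (16276 genes) it recovered 73 of 97 and 101 of 102, with 13.0% of calls on unchanged genes, above the nominal share; for the interaction (16461 genes) 49 of 90 and 82 of 108, with 4.38%. Alternatives were DESeq2 1.42.0, limma 3.58.1 (voom), other normalizations, filters and dispersions, a single fit, replicate blocks, Tgtp1 and Tgtp2 summed, and each library left out. A term for the 3 unstimulated libraries that stood apart was planned for the genotype comparison. Its use in the interaction and LPS responses, and the values within sets of libraries, were added after seeing the data.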

Additional observations from a re-analysis of the deposited data

How the results depend on the processing

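All LPS responses of the 6 members kept their direction and stayed past the adjusted threshold under every alternative run, 264 values in all. With upper-quartile normalization the median of all genes moved from -0.018 to -0.23 in WT and from -0.026 to -0.17 in ACAT1 KO cells, and the split of calls from 4850 higher and 4638 lower to 3628 and 6681 in WT, and from 4871 and 5166 to 3921 and 6560 in ACAT1 KO cells; for the interaction it went from 8 and 23 to 10 and 13. The number of members called without LPS, 1, was 4 with DESeq2, with at least 10 counts in every library, with robust dispersion and with a term for the 3 libraries that stood apart, 3 in the fit of 12 libraries, and 0 with the replicate number as a block; the cause was not tested. Leaving out each library gave 0 to 0. The calls over all genes, 314, were 1721, 475, 522, 664, 1353 and 151 under those alternatives in that order, and 7 to 522 with each library left out. After LPS 0 members became 1 with DESeq2 and 0 to 2 with a library left out, the 2 being Tgtp1 and Tgtp2 without WT replicate 1; members at an unadjusted p under 0.05 went from 1 to 2 with the replicate block and to 1 to 4 with a library left out (the fit of 12 libraries gave 0 but does not hold Tgtp1, the 1), where all calls ranged from 867 to 2245 against 2481. For the interaction, 0 members became 1 with DESeq2. Its calls over all genes, 31, were 334 with DESeq2, 11 with limma-voom, 69 with the term and 2 to 41 with a library left out.

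The labels do not say that equal numbers mark the same line in both states. Deviations of equal numbers from the group means correlated from 0.091 (ACAT1 KO 2) to 0.31 over 16535 genes, not all above 0.1, and from 0.14 (ACAT1 KO 2) to 0.45 over the 11961 genes at a mean of at least 1 CPM, all above 0.1; 12 of 12 libraries correlated best with their own number in both. With the line as a block, 2 members passed the interaction test, Irgm1 at 0.65 (SE 0.0719, adjusted p = 0.00708) and Irgm2 at 0.62 (SE 0.104, adjusted p = 0.0270), with 288 calls in all; adding the term also gave 2 members and 457 calls. Between genotypes, equal numbers correlated from -0.34 to 0.65 without LPS and from -0.050 to 0.076 after it, and with that replicate block Igtp had -0.50 (adjusted p = 0.0641).

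The log2 fold change of Ifi47 after LPS was 0.0076 with DESeq2, 0.0029 with limma-voom, 0.0067 with RLE, 0.029 with upper-quartile normalization, 0.0040 without a filter, 0.00014 with at least 10 counts and 0.013 with the replicate block, and -0.20 to 0.17 with a library left out. With a library left out it was -0.078 to 0.10 for Irgm1 -0.20 to 0.037 for Igtp and -0.89 to -0.29 for Iigp1 after LPS, -0.22 to 0.014 for Ifi47 without LPS, and the interaction was 0.44 to 1.03 for Iigp1, -0.097 to 0.27 for Ifi47 and -0.22 to 0.40 for Tgtp2. Levels moved by more than 1 SD with the TMM factors of a state's own fit for Irgm1 in ACAT1 KO LPS (661 CPM), Irgm2 in unstimulated ACAT1 KO (7.46), Igtp in unstimulated WT (19.7) and ACAT1 KO (13.9) and Ifi47 in unstimulated WT (8.15), and with library totals for Irgm1 in unstimulated WT (49.9) and ACAT1 KO LPS (660.6), Irgm2 in unstimulated ACAT1 KO (7.47), Igtp in unstimulated WT (19.7) and ACAT1 KO (13.9) and Ifi47 in unstimulated WT (8.13). Summing Tgtp1 and Tgtp2 was not run without LPS, where Tgtp1 is not listed, nor for the LPS responses and the interaction. Depth limits Tgtp2 and Iigp1 without LPS, at 14 to 83 counts.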

Other observations

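Conjugation of LC3 and GABARAP proteins to membranes is needed for IRG proteins to be directed to vacuoles. Genes of that machinery were compared between genotypes. Of 11 tested, none passed the adjusted threshold by edgeR without LPS, where 1.91% of all genes did. At an unadjusted p under 0.05, 4 were higher, against 9.73% of all genes. After LPS 1 was higher, where 5.93% of all genes were, Map1lc3a, which encodes an LC3 protein, at 0.70 (SE 0.122, edgeR adjusted p = 0.0109). With LPS itself 4 of 11 were higher and 3 lower in WT, and 2 higher and 4 lower in ACAT1 KO cells, near the shares of all genes, 29.3% and 28.0% in WT and 29.5% and 31.2% in ACAT1 KO cells. Of 8 genes for ubiquitin ligases and adaptors that gather at targeted vacuoles, 1 was called between genotypes after LPS, where 15.1% of all genes were. It was Traf6, higher at 0.25 (SE 0.0639, edgeR adjusted p = 0.0362). In either genotype 6 of the 8 were higher with LPS, beside 29.3% of all genes in WT and 29.5% in ACAT1 KO cells.

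Among 9 macrophage markers 2 were lower in unstimulated ACAT1 KO cells at the adjusted threshold, where 1.17% of all genes were. Adgre1 fell by 0.78 on the log2 scale (SE 0.112, edgeR adjusted p = 0.0368) and Fcgr1 by 0.69 (SE 0.0556, edgeR adjusted p = 0.0124). The other 7 markers had positive log2 fold changes, with 0 past the adjusted threshold. The median of the 9 was 0.19, beside 0.0035 over all genes. After LPS 3 were higher and 1 lower, beside 5.93% higher and 9.12% lower of all genes. Cd14, Itgam and Spi1 were higher at 0.40, 0.48 and 0.26, and Fcgr1 fell by 1.07 (SE 0.123, edgeR adjusted p = 0.00312). The part of these differences in the IRG values was not tested.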
